A study of Mus musculus with 12 samples.

Results

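Smooth muscle contraction rests on a set of genes for actin, myosin, the proteins that bind and regulate both, and the transcription factors that switch them on. As 31 named contractile, actin-binding and serum response factor pathway genes, the set was looked up by symbol in a table of 53819 genes, and 31 of 31 were found. From textbook knowledge of where each gene is expressed, 10 were set apart as smooth-muscle-restricted: Acta2, Actg2, Tagln, Cnn1, Myh11, Smtn, Lmod1, Myocd, Kcnmb1 and Ppp1r14a. Another 5, Des, Synpo2, Ldb3, Pdlim3 and Nexn, are shared with skeletal and heart muscle. The remaining 16 are broadly expressed cytoskeletal genes, several of which are also abundant in smooth muscle: Tagln2, Cnn2, Myl9, Mylk, Tpm1, Tpm2, Cald1, Actn1, Flna, Vcl, Srf, Pdlim7, Csrp1, Csrp2, Fhl1 and Fhl2. A low-count filter kept 30 of the 31 for testing among 15698 genes, and left out Pdlim3.

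The genes were followed in 4 groups of 3 libraries, all from wild-type (WT) mice whose strain and age are not given in the labels. Marrow of the hind limbs and pelvis was plated on collagen I. After the first passage the cells were either used directly (BM nonsorted) or passed through a flow cytometer that kept cells with Sca-1 and CD51 and without CD31, CD45, Ly6C and F4/80 (BM sorted). Cells freed from hind-limb bone fragments by collagenase I, called bone-associated cells (BAC), were taken whole (BAC nondepleted) or after magnetic beads had removed cells with CD45, Ly6C or F4/80 (BAC depleted). The labels call both kinds of cell stromal and give one growth medium, alpha MEM lacking ascorbic acid with serum, under hypoxia. The sources used here do not say whether BAC were passaged or how long they grew, so tissue, isolation and time in culture cannot be told apart in a comparison of BM with BAC. The labels number the libraries but do not say which animal or culture each came from. P-values therefore reflect how far these samples differ, and that spread may be technical.

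Serum response factor (SRF) is a DNA-binding protein that recognises the CArG box in the promoters of contractile genes. Alone it is a weak activator, and it works with partners: myocardin, which is largely confined to smooth and heart muscle, and the related factors MRTF-A and MRTF-B, which are present in most cells and enter the nucleus when free actin monomers are used up. In this way the assembly of actin filaments feeds back on the genes that encode actin and its binding proteins. Smooth muscle cells line vessels in bone, and stromal cells grown on stiff plastic are known to take up part of the same contractile programme, including smooth muscle actin in stress fibres.

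The libraries held 27937709 to 32164725 counts. The 31 genes took 2.14% to 2.39% of the counts in BM sorted, 1.84% to 2.26% in BM nonsorted, 0.624% to 1.13% in BAC depleted and 0.552% to 0.682% in BAC nondepleted. Levels are given below as CPM, counts scaled by TMM to a common library size, the usual per-million unit. Summed over 14 macrophage genes they ran from 13.1 to 67.3 CPM in the purified groups, from 5202 to 5888 in BM nonsorted and from 13170 to 14931 in BAC nondepleted. As a check of the labels, 10 stromal genes summed to at least 24767 CPM in every library, and 2 were called higher and 5 lower in BM sorted than in BAC depleted. Those furthest apart were Lum and Dcn, at most 0.673 and 3.06 CPM in the BM libraries and at least 45.9 and 121 CPM in the BAC libraries, while Col1a1 was higher in BM sorted. Over all genes 22.9% were called higher and 24.6% lower in BM sorted than in BAC depleted. The 8 endothelial genes summed to 4.08 to 11.6 CPM, with Pecam1 and Cdh5 at most 0.778 CPM and the highest, Kdr, at most 7.89 CPM in any library. Several libraries stood apart. BAC depleted 1 had 43406 counts of Xist and 0 of the Y-linked gene Ddx3y, against at most 16 of Xist and at least 72.7 CPM of Ddx3y in the other 11, and it was the lowest of its group for 21 of the 30 tested genes. Its median log2 deviation from the group mean was -0.43 over those 30 and -0.02 over all tested genes. In BAC depleted, mitochondrial genes took 1.82% to 2.62% of the counts, against at most 1.36% elsewhere. In BM nonsorted 2, 19 skeletal muscle genes summed to 413 CPM, against 82.8 and 40.7 CPM in libraries 1 and 3 of that group.

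The CArG boxes near the start sites were read from RefSeq promoter windows, because SRF is the factor that many of these genes share. A window ran from 250 bases before to 50 bases after the start site, on build GRCm38.p6, which is not the GRCm39 build of the counts. It was held for 25 of the 31 genes, and not for Actg2, Tagln, Myh11, Myocd, Nexn and Csrp2. A CArG box of 10 bases, whose form is the same on both strands, was present in the windows of 7 of these 25 genes (28%), against 1.81% of 27025 gene symbols. The 7 were Cnn2, Myl9, Ldb3, Srf, Vcl, Fhl1 and Fhl2. By class they made 0 of 6 restricted genes with a window, 1 of 4 shared with striated muscle and 6 of 15 broadly expressed. The set was named in part for the SRF pathway, so its share of boxes is not independent of that choice. With 1 deviating base allowed among the middle ones, Acta2 and Pdlim3 joined them, 9 of 25 (36%) against 11.3% of symbols. Below are stretches upstream of the start site for the most abundant restricted gene, for 3 genes that were higher in marrow cells and for 4 that were called in neither comparison of BM with BAC, each 5′ to 3′ on the strand of its gene, with the boxes in capitals.
Acta2: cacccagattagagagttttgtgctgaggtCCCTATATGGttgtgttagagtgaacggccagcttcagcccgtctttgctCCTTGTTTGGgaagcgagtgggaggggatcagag
Cnn2: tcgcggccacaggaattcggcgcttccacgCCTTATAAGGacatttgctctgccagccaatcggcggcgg
Myl9: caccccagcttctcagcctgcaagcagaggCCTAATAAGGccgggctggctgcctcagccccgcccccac
Ldb3: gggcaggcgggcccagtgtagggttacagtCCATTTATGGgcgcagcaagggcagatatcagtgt
Srf: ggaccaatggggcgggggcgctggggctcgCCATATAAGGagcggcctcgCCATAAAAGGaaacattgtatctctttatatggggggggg
Vcl: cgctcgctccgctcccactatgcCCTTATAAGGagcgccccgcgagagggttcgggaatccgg
Fhl1: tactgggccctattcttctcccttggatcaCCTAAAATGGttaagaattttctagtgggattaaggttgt
Fhl2: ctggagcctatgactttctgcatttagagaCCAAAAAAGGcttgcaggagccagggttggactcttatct
On GRCm38.p6 they lie at chr19:34255374-34255487 (minus strand), chr10:79988514-79988583, chr2:156775273-156775342, chr14:34588682-34588746 (minus), chr17:46556185-46556274 (minus), chr14:20929148-20929210, chrX:56779551-56779620 and chr1:43196818-43196887 (minus). The boxes of Acta2 begin 84 and 34 bases before the start site and are both of the kind with 1 deviating base. Those printed for Srf begin 82 and 62 bases before it. The Cnn2 and Vcl boxes have the same 10 bases, at 56 and 227 bases before their start sites. A match of letters is a description of the window and not a measured site.

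The purified groups, BM sorted and BAC depleted, were compared to ask how stromal cells of marrow and of bone differ once macrophages are removed. Contractile genes were higher in BM sorted: 23 of the 30 tested genes were called higher and 0 lower (adjusted p under 0.05, quasi-likelihood test of edgeR, Benjamini-Hochberg over all genes). Over all 15698 genes 22.9% were called higher, 24.6% lower and 47.4% either way. The median log2 fold change was 1.99 over the 30 genes and -0.02 over all genes. By class, 9 of 10 restricted genes were called with a median of 2.88, 3 of 4 shared with striated muscle with a median of 2.26, and 11 of 16 broadly expressed genes with a median of 1.08. In 25 of the 30 genes every BM sorted library lay above every BAC depleted library, where 52.8% of all genes showed no overlap in either direction. In bulk RNA, fewer cells that express a gene and less of its RNA per cell cannot be told apart.

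Both smooth muscle actins were higher in BM sorted. Acta2 encodes smooth muscle alpha-actin, which is also the usual mark of myofibroblasts. It stood at 4197, 5361 and 4671 CPM in BM sorted and at 307, 1033 and 249.9 CPM in BAC depleted, so that the highest BAC library was still well below every marrow library. Its log2 fold change was 3.16 ± 0.55 (approximate SE; adjusted p = 0.00119), and 4.09 without BAC depleted 2. Actg2 encodes the gamma-actin of gut and other visceral smooth muscle. It had 949, 1115 and 1063 CPM in BM sorted and 5.28, 8.06 and 11.1 CPM in BAC depleted, a log2 fold change of 7.0 ± 0.32 (adjusted p = 9.40e-06). Among the members this had the lowest p, and the range was 6.76 to 7.28 over the alternative settings.

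Smooth muscle myosin and its regulators followed. Myh11 encodes the smooth muscle myosin heavy chain. Its levels were 67.0, 110.2 and 70.3 CPM in BM sorted and 1.75, 16.6 and 2.50 CPM in BAC depleted, where library 2 was the high one. The log2 fold change of Myh11 was 3.57 ± 0.82 (adjusted p = 0.00540) and 5.29 without that library. Ppp1r14a encodes CPI-17, an inhibitor of myosin phosphatase that keeps myosin active. It was low in both groups, 7.65, 9.59 and 8.42 against 3.15, 4.74 and 1.46 CPM, with a log2 fold change of 1.45 ± 0.36 (adjusted p = 0.00730). Among the broadly expressed genes Mylk, the kinase that phosphorylates the myosin light chain, stood at 1033, 619 and 514 against 62.7, 162 and 22.4 CPM (log2 fold change 3.13 ± 0.60, adjusted p = 0.00209), and at a log2 fold change of 4.09 without BAC depleted 2. Its substrate Myl9, the regulatory light chain, stood at 887, 874 and 812 against 91.2, 291 and 146 CPM (log2 fold change 2.29 ± 0.39, adjusted p = 0.00112). In both, no BAC depleted library reached the lowest marrow library.

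Of the restricted actin-binding genes, Tagln (transgelin, also called SM22) stood at 78.0, 89.2 and 79.9 CPM in BM sorted and 7.79, 30.6 and 22.8 in BAC depleted. Its log2 fold change was 2.01 ± 0.41 (adjusted p = 0.00298). In a GENCODE annotation of another build, M21, 67.9% of the exon bases of Tagln are overlapped by genes of the opposite strand. No source used here gives the strand setting of the counting, so reads of both strands may be mixed or lost at this gene. Vcl (25.5%) and Smtn (16.3%) are overlapped on the opposite strand as well, and every other member by at most 8.2%. Cnn1, calponin, stood at 280.0, 402 and 336 CPM against 40.04, 41.1 and 162, with library 3 the high one in BAC depleted. Its log2 fold change of 2.07 ± 0.55 (adjusted p = 0.0115) was 3.06 without that library. Lmod1, leiomodin, which starts actin filaments, stood at 112, 148 and 109 against 7.98, 23.1 and 29.7 CPM (log2 fold change 2.60 ± 0.44, adjusted p = 0.00106). Smtn, smoothelin, was the restricted gene that was not called: 156, 155 and 172 against 111, 109 and 137 CPM, without overlap, at a log2 fold change of 0.44 ± 0.18 (adjusted p = 0.0639). The call was made with only the groups compared (adjusted p = 0.0419), and leaving out BM nonsorted 2, BM nonsorted 3 or BAC depleted 3 brought its adjusted p to 0.0486, 0.0122 and 0.0463.

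The genes for myocardin and for a smooth muscle channel subunit were near 0 in BAC cells. Myocd had 238, 215 and 285 counts in the BM sorted libraries and 1, 6 and 1 in BAC depleted, that is 7.72 ± 1.17 CPM (SD, n = 3) against 0.0952 ± 0.101. The log2 fold change was 6.28 ± 0.87 (adjusted p = 0.000361). Kcnmb1, the beta subunit of the calcium-activated potassium channel that relaxes smooth muscle, had 9, 42 and 42 counts in BM sorted and 0 in every BAC depleted library. It was at least 27.1-fold higher in BM sorted, taken against a floor of 3 counts over the BAC depleted group (adjusted p = 0.00612). Such floors cover counting error only. Srf itself, the DNA-binding partner of myocardin, did not follow: it stood at 56.4, 55.7 and 55.2 CPM in BM sorted and 28.7, 71.5 and 96.1 in BAC depleted (log2 fold change -0.23 ± 0.32, adjusted p = 0.581). Without BAC depleted 1, the lowest library, Srf was called lower in BM sorted, at -0.59 (adjusted p = 0.00460).

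**Figure D1:**
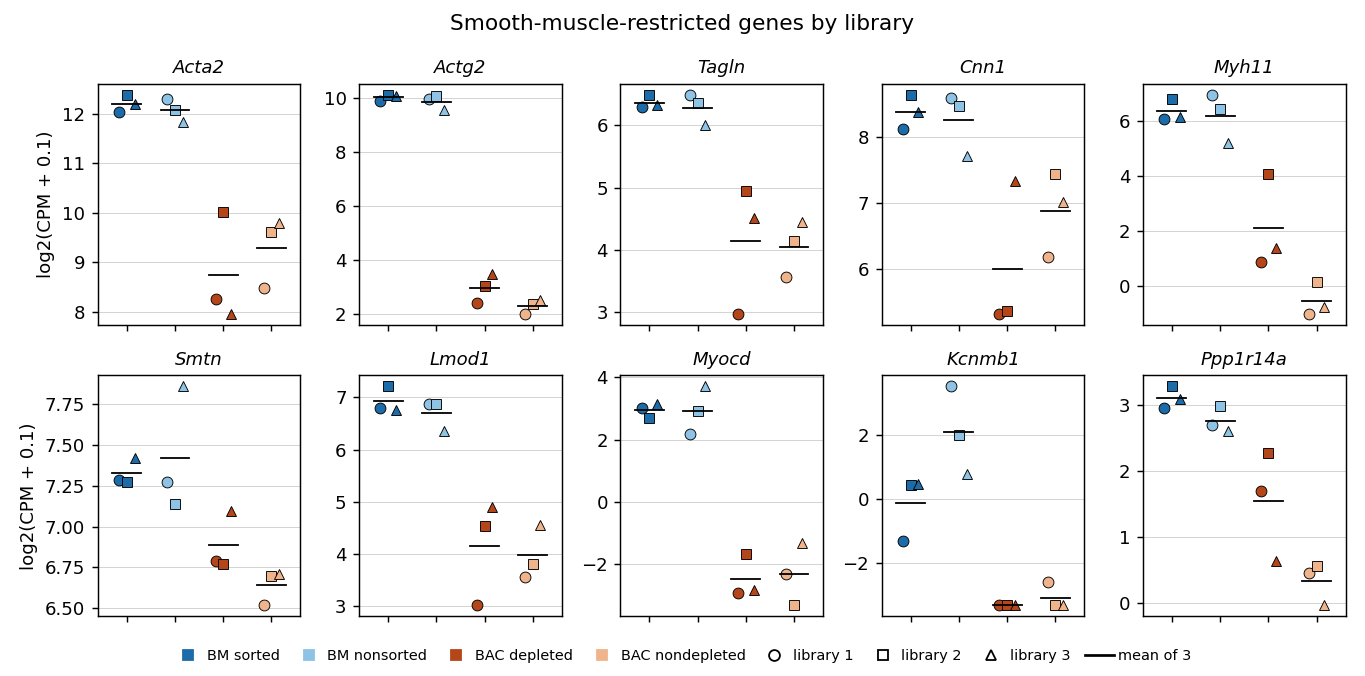
Level of the 10 smooth-muscle-restricted genes in each of the 12 libraries as log2(CPM + 0.1), with colour for the group, symbol for the library number and a bar for the mean of the 3 log2 values. Both BM groups lie above both BAC groups without overlap for Acta2, Actg2, Tagln, Cnn1, Myh11, Lmod1, Myocd, Kcnmb1, Ppp1r14a and Smtn, and the gap is widest for Actg2.

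Of the genes shared with striated muscle, Synpo2, Ldb3 and Nexn were higher in BM sorted and Des was not called. Synpo2, an actin-bundling protein of the Z-disc, stood at 126, 224 and 148 CPM in BM sorted and 9.51, 26.7 and 8.04 in BAC depleted (log2 fold change 3.49 ± 0.64, adjusted p = 0.00166). Ldb3, which ties alpha-actinin to the Z-disc, stood at 18.3, 27.0 and 23.7 against 4.55, 5.41 and 2.71 CPM (log2 fold change 2.44 ± 0.34, adjusted p = 0.000352). Nexn, nexilin, a filament-binding protein, stood at 95.2, 112 and 96.1 against 16.9, 21.6 and 33.4 CPM (log2 fold change 2.08 ± 0.22, adjusted p = 8.00e-05). Des, the muscle intermediate filament desmin, stood at 5.91, 14.3 and 8.98 against 5.79, 1.94 and 0.458 CPM, a log2 fold change of 1.82 ± 0.99 (adjusted p = 0.157). Of 14 tested skeletal muscle genes, 1 was called higher in this comparison, the skeletal actin Acta1 (32.2 ± 17.7 against 5.68 ± 1.58 CPM). Over all genes 22.9% were called higher. The library sums of the skeletal list were 25.0 to 81.7 CPM in BM sorted and 9.34 to 42.5 in BAC depleted, Tnnc2 was at 0 counts in both groups, and the part of muscle cells in these values was not tested.

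Among the broadly expressed genes the paralogs of restricted genes differed as well, by varying amounts. Tagln2, the widely expressed transgelin, stood at 171, 259 and 341 CPM in BM sorted and 68.4, 47.98 and 61.0 in BAC depleted (log2 fold change 2.12 ± 0.26, adjusted p = 0.000197). Cnn2, the calponin of non-muscle cells, had 989, 929 and 914 against 428, 563 and 715 CPM and a smaller log2 fold change of 0.73 ± 0.17 (adjusted p = 0.00506). Tropomyosins wind along actin filaments, and the one encoded by Tpm2 had 849, 989.9 and 818 against 196, 250.1 and 234 CPM (log2 fold change 1.97 ± 0.18, adjusted p = 5.11e-05). For Tpm1 the levels were 1300.2, 1665 and 1544 and 896, 1133 and 1092 CPM (log2 fold change 0.53 ± 0.17, adjusted p = 0.0270). That call of Tpm1 was lost without BM sorted 2, BM sorted 3 or BAC depleted 1, at adjusted p = 0.105, 0.0760 and 0.0718.

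Csrp2, a LIM protein that is also abundant in smooth muscle, was furthest apart of the genes classed as broadly expressed. It stood at 161, 271 and 253 against 20.3, 19.4 and 9.54 CPM (log2 fold change 3.80 ± 0.63, adjusted p = 0.000966). Its relative Csrp1 had a log2 fold change of 1.5 ± 0.22, and the LIM protein Pdlim7 one of 1.5 ± 0.22. The cross-linkers of actin filaments were about 1 log2 unit higher, with 1.12 ± 0.21 for Actn1 (alpha-actinin) and 1.04 ± 0.24 for Flna (filamin A), and the adjusted p of these 4 genes lay between 0.000471 and 0.00503. Cald1 (caldesmon, which restrains myosin on actin), Vcl (vinculin, which links actin to adhesions), Srf, Fhl1 and Fhl2 (LIM-only proteins) were not called. Fhl1 stood at 183, 324 and 248 CPM in BM sorted and 84.0, 1843 and 141 in BAC depleted, where library 2 was far above the rest (log2 fold change -1.45 ± 0.95, adjusted p = 0.235), and the log2 fold change turned to 1.16 without that library. Fhl2 stood at 195, 197 and 174 against 83.7, 198 and 469 CPM (log2 fold change -0.41 ± 0.45, adjusted p = 0.484), turned to 0.42 without BAC depleted 3, and was called lower in BM sorted without BAC depleted 1 (-0.82, adjusted p = 0.0376). The groups overlapped for both LIM-only genes. Cald1 stood at 2387, 2916 and 2532 CPM in BM sorted and 1445, 2379.9 and 3689 in BAC depleted, so the groups overlapped, with a log2 fold change of 0.06 ± 0.34. Vcl had a log2 fold change of 0.40 ± 0.20 (adjusted p = 0.131), and 0.57 without BAC depleted 2 (adjusted p = 0.0483). Of the 7 genes with a CArG box in the promoter window, Cnn2, Myl9 and Ldb3 were called higher and Srf, Vcl, Fhl1 and Fhl2 were not called.

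Before purification, BM nonsorted and BAC nondepleted gave a comparison of the tissues with macrophages still present. Its groups share no library with the purified ones, although one fit over all 12 libraries gave both comparisons their estimate of spread. Here 24 of the 30 tested genes were called higher in BM nonsorted and 0 lower, where 14.9% of all genes were called higher, 16.8% lower and 31.7% either way. The median log2 fold change was 2.09 over the 30 genes and -0.01 over all genes, with 9 of 10 restricted genes, 4 of 4 shared with striated muscle and 11 of 16 broadly expressed genes called higher (class medians 2.68, 4.35 and 1.29). The genes called higher in both comparisons numbered 21, which is 91.3% of the 23 and 87.5% of the 24. The same share was not taken over all genes, so this overlap is not shown to be particular to the members. Cnn1 and Tagln2 were called in the purified comparison alone, and Cald1, Des and Smtn in the unpurified one alone. In 28 genes every BM nonsorted library lay above every BAC nondepleted library and in 1, Srf, below, where 56% of all genes showed no overlap. The macrophage genes were lower in BM nonsorted than in BAC nondepleted by a median of 1.32 on the log2 scale, 12 of 14 called lower. Macrophage sums were at most 67.3 CPM in both groups of the purified comparison, which gave 23 calls. The part of macrophages in the differences of the contractile genes was not tested in either comparison.

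Actg2 again had the lowest p among the members, with 999.9, 1082 and 746 CPM in BM nonsorted and 3.96, 5.12 and 5.64 in BAC nondepleted, a log2 fold change of 7.59 ± 0.33 (adjusted p = 5.53e-06 by edgeR's quasi-likelihood test). Acta2 stood at 5035, 4349 and 3646 against 357, 787 and 883 CPM, a log2 fold change of 2.68 ± 0.54 (adjusted p = 0.00550). Myh11 had 123, 86.3 and 36.0 CPM in BM nonsorted and 0.403, 1.02 and 0.495 in BAC nondepleted (log2 fold change 7.0 ± 1.0, adjusted p = 0.00132). The gap between this fold change and that of the purified groups is the difference of effects given further on, which Myh11 did not pass. In BAC nondepleted the myosin gene was thus close to absent while Acta2 was not. Mylk, at 348, 468 and 427 against 16.2, 10.98 and 13.0 CPM, and Ldb3, at 27.3, 31.9 and 23.1 against 0.705, 1.42 and 0.534 CPM, were higher by 4.95 ± 0.65 and 4.95 ± 0.39 on the log2 scale (adjusted p = 0.000895 and 0.000117).

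Myocd had 144, 235 and 444 counts in BM nonsorted and 3, 0 and 8 in BAC nondepleted (log2 fold change 5.92 ± 0.84, adjusted p = 0.00124). Kcnmb1 had 370, 122 and 55 counts against 2, 0 and 0, a ratio of 233 with a 95% counting interval of 64.1 to 1927, so that the size is known only roughly. Library 1 held most of the Kcnmb1 counts of BM nonsorted. Lmod1, Synpo2, Myl9, Ppp1r14a, Tagln, Nexn and Tpm2 had log2 fold changes of 2.68, 3.75, 2.68, 2.51, 2.20, 1.97 and 1.92, all called. Smaller called differences were those of Flna, Actn1, Pdlim7, Tpm1, Csrp1, Cnn2 and Smtn, with log2 fold changes of 1.52, 1.43, 1.21, 1.03, 1.03, 0.81 and 0.81. Cald1 (log2 fold change 1.37 ± 0.35) was not called without BAC nondepleted 1 or 2, at adjusted p = 0.0580 and 0.0585. Csrp2 (log2 fold change 2.24 ± 0.59, from 211, 213 and 198 against 89.5, 28.9 and 13.0 CPM) was not called without BAC nondepleted 2 (adjusted p = 0.0670).

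Des stood at 7.78, 64.6 and 5.79 CPM in BM nonsorted and 0.705, 0.363 and 0.572 in BAC nondepleted, and library 2 of BM nonsorted was far above the other two. Its log2 fold change was 5.56 ± 1.19 (adjusted p = 0.00752), and 3.62 without BM nonsorted 2 (adjusted p = 0.0208). Pdlim3, another Z-disc gene, had 5, 169 and 8 counts in BM nonsorted and 0, 1 and 1 in BAC nondepleted, so that library 2 carried nearly all of them too. Over the groups the ratio was 77.5, with a 95% counting interval of 21.1 to 645, and Pdlim3 was not tested. In the same library skeletal muscle genes were highest, as 3 chosen after their values were seen show: Acta1 stood at 75.4, 111 and 21.7 CPM, the embryonic myosin Myh3 at 1.72, 93.4 and 4.95 CPM and Actn2 at 0.0615, 13.5 and 1.40 CPM in libraries 1 to 3. Of 14 tested skeletal muscle genes 6 were called higher in BM nonsorted than in BAC nondepleted, and 15 of the 19 listed reached a mean of 1 CPM there, while Tnnc2 was at 0. Over all genes 14.9% were called higher in that comparison. The part of muscle cells in the values of Des and Pdlim3 was not tested.

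The genes not called in the unpurified comparison were Cnn1, Tagln2, Vcl, Srf, Fhl1 and Fhl2. With only the 6 libraries compared in the fit, 5 of these were called, Cnn1 (0.0301), Vcl (0.0247), Fhl1 (0.00693) and Fhl2 (0.00259) higher and Srf lower (adjusted p = 0.00928), which makes 28 higher and 1 lower. DESeq2's Wald test also called Cnn1, Vcl and Fhl1. Cnn1 stood at 386, 356 and 211 against 72.4, 174 and 129.9 CPM, without overlap (log2 fold change 1.34 ± 0.54, adjusted p = 0.0825), and was called without BAC depleted 3 (adjusted p = 0.0139). Tagln2 stood at 401, 318 and 238 against 254, 229 and 225 CPM, with overlap (log2 fold change 0.43 ± 0.25, adjusted p = 0.214). Srf stood at 54.4, 60.3 and 60.3 against 89.9, 79.8 and 76.6 CPM (log2 fold change -0.49 ± 0.32, adjusted p = 0.260). Leaving out BAC depleted 1, a library outside this contrast that adds to the shared estimate of spread, brought Srf to adjusted p = 0.00937 in the lower direction, and Fhl2, Vcl and Fhl1 to 0.0446, 0.0167 and 0.0307 in the higher one. Vcl was also called without BAC depleted 2 (0.0411) or BAC nondepleted 3 (0.0394), and Fhl1 without BAC depleted 2 (0.00244).

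**Figure D2:**
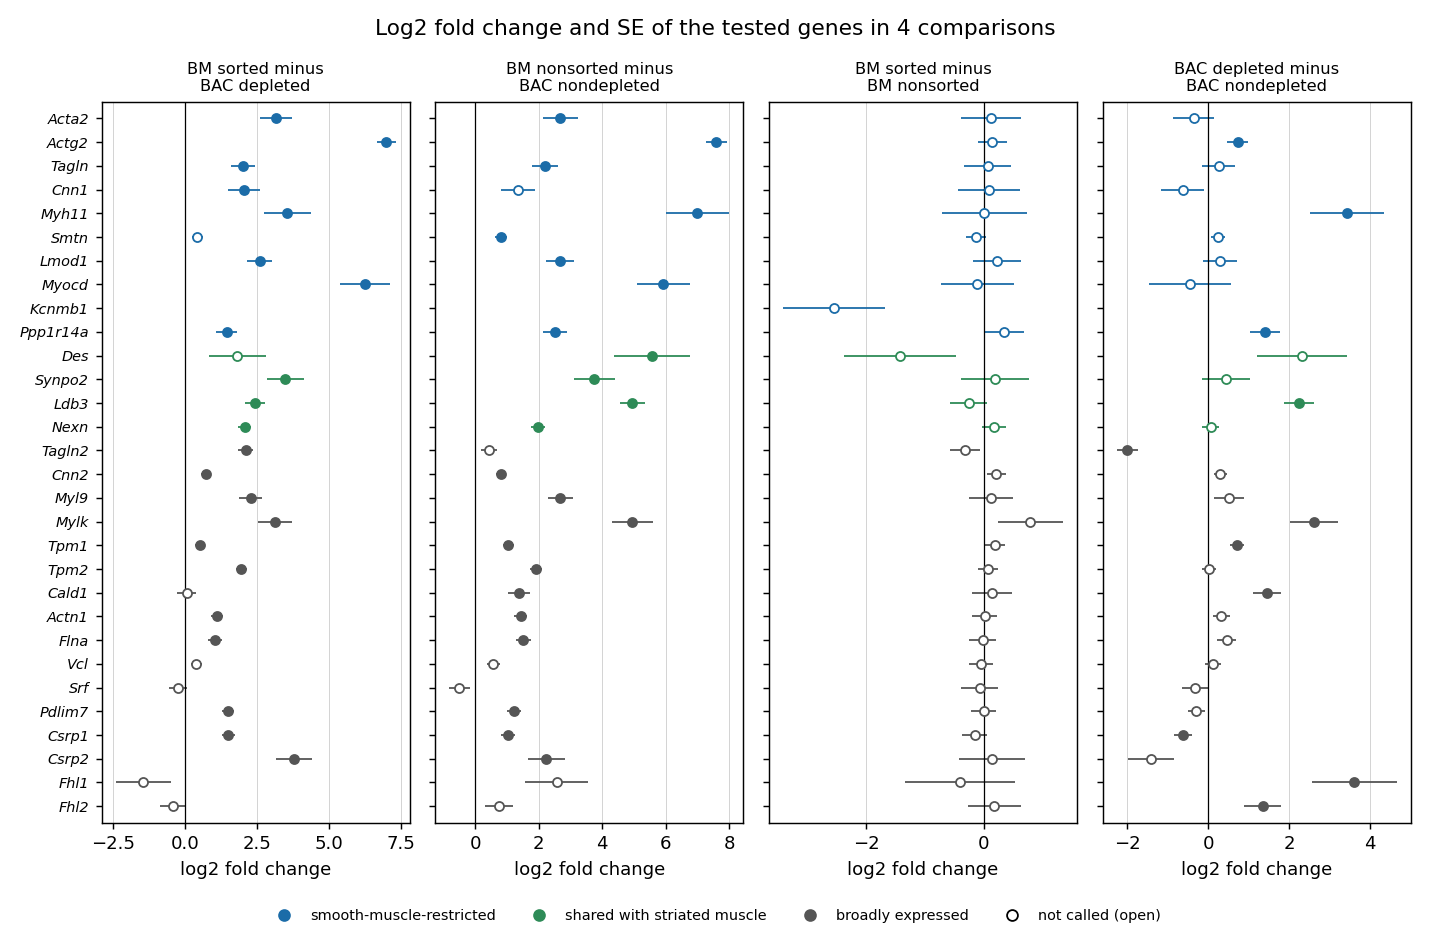
Log2 fold change with its approximate SE for the tested genes, one panel per comparison with the groups named above it, coloured by class, filled where called and open where not. In both panels of BM minus BAC most points lie right of 0, with Actg2 at 7.0 and 7.59, while in the panel of sorting all points are open. Kcnmb1 is drawn for sorting only, since the BAC groups had 0 and 2 counts in all.

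Sorting of the marrow cultures was examined for whether removing other cells shifted the contractile genes. None of the 30 genes was called between BM sorted and BM nonsorted by edgeR's quasi-likelihood test (0 also by DESeq2's Wald test, and 1 at an unadjusted p under 0.05), where 6.23% of all genes were called, 0.166% higher and 6.06% lower. The log2 fold changes of the members ran from -2.56 to 0.80 with a median of 0.07. For Acta2 the difference was 0.13 ± 0.51, for Actg2 0.14 ± 0.25, for Myh11 0.01 ± 0.73 and for Myocd -0.10 ± 0.62. The SE of Acta2 and Myh11 is larger than the difference itself, so the test does not show that these genes were equal. Kcnmb1 was the gene past the unadjusted threshold: 0.302, 1.26 and 1.29 CPM after and 11.4, 3.88 and 1.61 before sorting, no overlap, a log2 fold change of -2.56 ± 0.87 (adjusted p = 0.184). Mylk, at 1033, 619 and 514 CPM after and 348, 468 and 427 before, and Cnn2 also showed no overlap, upward, as 28.7% of all genes did in either direction, with adjusted p of 0.598 and 0.645. Des had a mean of 26.1 CPM before sorting, set by library 2, and 9.71 after, and was not called.

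Depletion of the BAC asked the same of the bone-derived cells. By edgeR's quasi-likelihood test 9 genes were called higher in BAC depleted and 2 lower, where 17.4% of all genes were called higher, 19.9% lower and 37.3% either way. Taken either way, the members called were thus near the share of all genes. The median log2 fold change of the members was 0.30, and 0.05 over all genes. Higher were Actg2, Myh11 and Ppp1r14a of the 10 restricted genes, Ldb3 of those shared with striated muscle, and Mylk, Tpm1, Cald1, Fhl1 and Fhl2 of the 16 broadly expressed. Lower were Tagln2 and Csrp1. Groups did not overlap for 8 genes upward and 2 downward, 33.3% of the tested members, where 46.3% of all genes showed no overlap. Among these libraries macrophage sums dropped from 13170 or more to 67.3 CPM or less, and a gene that macrophages lack takes a larger share of counts once they are gone; how much of each difference this makes was not tested.

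Mylk, Ldb3 and Tagln2 kept their calls in each of the 19 alternative settings. Mylk stood at 62.7, 162 and 22.4 CPM after and 16.2, 10.98 and 13.0 before depletion, a log2 fold change of 2.62 ± 0.59 (adjusted p = 0.00655), with library 2 the highest. Without that library it was 1.66 (adjusted p = 0.0133). Ldb3 stood at 4.55, 5.41 and 2.71 CPM after and 0.705, 1.42 and 0.534 before (2.25 ± 0.36, adjusted p = 0.000996). Tagln2 moved the other way, at 68.4, 47.98 and 61.0 CPM after and 254, 229 and 225 before, the 3 libraries of each group close together (-2.0 ± 0.26, adjusted p = 0.000278). Tagln2 was the member with the lowest p of this comparison, and it is a gene that leukocytes express as well.

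Cald1 rose from 662, 783 and 1285 to 1445, 2379.9 and 3689 CPM (1.46 ± 0.35, adjusted p = 0.00831), and Tpm1 from 568, 586 and 761 to 896, 1133 and 1092 CPM (0.70 ± 0.17, adjusted p = 0.00959). Both calls held without each of the 12 libraries in turn, and both were lost when only the BAC libraries entered the fit (adjusted p = 0.0575 and 0.0525). Myh11 stood at 1.75, 16.6 and 2.50 CPM after and 0.403, 1.02 and 0.495 before (3.44 ± 0.91, adjusted p = 0.0147). Library 2 held most of that difference, since without it the log2 fold change was 1.72 (adjusted p = 0.0511). The call of Myh11 was also lost without BAC nondepleted 1 (0.0569) or 3 (0.0510). Ppp1r14a stood at 3.15, 4.74 and 1.46 CPM after and 1.28, 1.38 and 0.877 before (1.40 ± 0.37, adjusted p = 0.0135), and at adjusted p = 0.0513 without BAC nondepleted 3.

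Single libraries carried the LIM-only genes. Fhl1 stood at 84.0, 1843 and 141 CPM in BAC depleted and 39.3, 58.0 and 71.2 in BAC nondepleted, and library 2 was over 10 times the other two of its group. Its log2 fold change of 3.62 ± 1.04 (adjusted p = 0.0208) became 1.0 without that library (adjusted p = 0.110), and the call was lost without BAC nondepleted 1, 2 or 3 as well, at adjusted p of 0.0727, 0.0657 and 0.0524. Fhl2 stood at 83.7, 198 and 469 against 98.0, 109 and 89.0 CPM, with library 3 high and the groups overlapping (1.34 ± 0.46, adjusted p = 0.0416), and at 0.51 without library 3 (adjusted p = 0.181). The calls of Fhl2, Actg2 (0.73 ± 0.26, adjusted p = 0.0480) and Csrp1 (-0.62 ± 0.22, adjusted p = 0.0449) were lost in 10, 11 and 8 of the 12 fits that left out 1 library. In these fits adjusted p reached 0.181 for Fhl2, 0.171 for Actg2 and 0.135 for Csrp1. Acta2, at 307, 1033 and 249.9 CPM after and 357, 787 and 883 before depletion, was not called (-0.35 ± 0.51, adjusted p = 0.611). Without BAC depleted 2 it was called lower (-1.28, adjusted p = 0.0202), and without BAC depleted 3 so was Cnn1 (-1.64, adjusted p = 0.00887). Des, Csrp2, Cnn2 and Flna were called under some left-out library: Des without BM nonsorted 2 (0.0465), Csrp2 without BAC nondepleted 3 (0.0144), and Cnn2 and Flna without BAC depleted 1 (0.0160 and 0.0192).

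**Figure D3:**
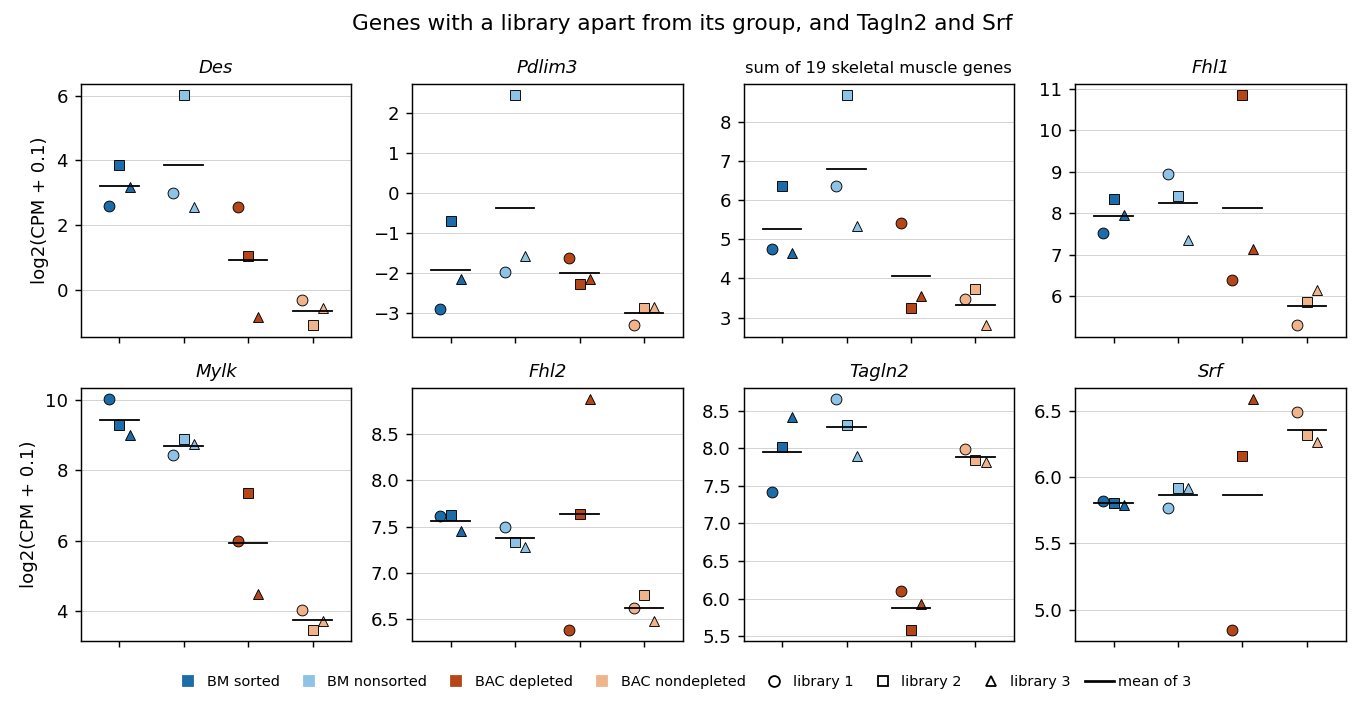
Level in each of the 12 libraries as log2(CPM + 0.1) for 7 member genes and for the sum of 19 skeletal muscle genes, with bars for the mean of the 3 log2 values. BM nonsorted 2 is high for Des, Pdlim3 and the skeletal sum, BAC depleted 2 for Fhl1 and BAC depleted 3 for Fhl2, while Tagln2 is lowest in all 3 BAC depleted libraries.

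The log2 change on sorting of BM minus that on depletion of BAC was tested as a difference. The 2 purifications differed in method and in the macrophage sums before them, so tissue and method cannot be told apart here. For 1 member the difference was called higher and for 1 lower. Over all genes 5.08% were called higher, 2.99% lower and 8.06% either way, so the members called did not exceed the share of all genes. Tagln2 had a difference of 1.69 ± 0.36 (adjusted p = 0.0220, edgeR's quasi-likelihood test), made of -0.31 ± 0.25 on sorting and -2.0 ± 0.26 on depletion. That call was lost without BM sorted 2 (0.0502), BM sorted 3 (0.0556), BM nonsorted 2 (0.0587) or BAC nondepleted 1 (0.0529). Ldb3 had a difference of -2.51 ± 0.48 (adjusted p = 0.0153), made of -0.26 ± 0.32 on sorting and 2.25 ± 0.36 on depletion, and kept its call in all 18 alternatives that gave a value. Myh11, at -3.43 ± 1.17, and Fhl1, at -4.02 ± 1.37, did not pass (adjusted p = 0.0995 and 0.101). Without BAC depleted 1 both were called, with Cald1 and Fhl2 (0.0473, 0.0378, 0.0389 and 0.0330), and without BAC depleted 3 so were Ppp1r14a and Mylk (0.0370 and 0.0333).

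Ratios of related genes within a library do not depend on the scaling between libraries. They are counts without a correction for length, so each is read across libraries and not as a level of one gene against another. Actg2 had 20.8 to 22.7 counts per 100 counts of Acta2 in BM sorted and 19.9 to 24.9 in BM nonsorted, against 0.780 to 4.43 in BAC depleted and 0.639 to 1.11 in BAC nondepleted. The 2 smooth muscle actins thus differed unequally between BM and BAC in every library. Against Actb, the actin of all cells, Acta2 had 114 to 140 counts per 100 in BM sorted and 85.8 to 105 in BM nonsorted, and 7.61 to 35.2 in the 6 BAC libraries. For Myh11 against Myh9, the main myosin of non-muscle cells, the counts per 100 were 1.84 to 4.94 in the BM libraries, 0.196 to 1.18 in BAC depleted and 0.0400 to 0.0906 in BAC nondepleted. Tpm2 had 53.0 to 71.0 counts per 100 counts of Tpm1 in the BM libraries, 34.7 to 35.3 in BAC nondepleted and 21.4 to 22.1 in BAC depleted, 3 ranges without overlap and each BAC range narrow. The ratio of Cnn1 to Cnn2 was 25.6 to 49.8 in the BM libraries, which overlapped BAC nondepleted at 15.3 to 39.1 and not BAC depleted at 7.29 to 22.6. For Tagln to Tagln2 it was the other way round, with 22.4 to 45.6 in the BM libraries, 11.4 to 63.8 in BAC depleted and 4.63 to 9.61 in BAC nondepleted. Mylk to Myl9 likewise overlapped between the BM libraries, at 46.4 to 116, and BAC depleted, at 15.4 to 68.8, and not BAC nondepleted, at 7.63 to 18.5.

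**Figure D4:**
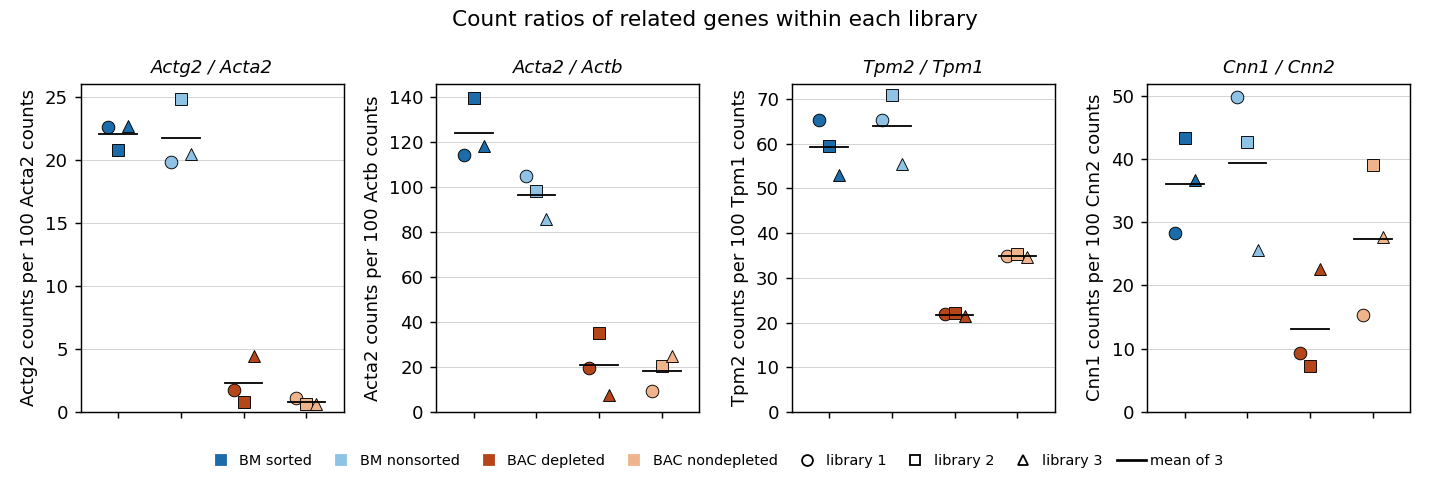
Counts of one gene per 100 counts of a related gene in each of the 12 libraries, on linear axes from 0, with bars for the mean of 3. Actg2 per 100 Acta2 is 19.9 or more in every BM library and 4.43 or less in every BAC library, and the 3 libraries of each BAC group nearly coincide for Tpm2 per 100 Tpm1.

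For an order of levels between genes, values were taken per length, as CPM per kilobase of merged exon in GENCODE M21. Acta2 ranked 1 of the 31 genes in all 4 groups, at 2160 ± 267 (SD, n = 3) in BM sorted, 1978 ± 316 in BM nonsorted, 241 ± 199 in BAC depleted and 308 ± 127 in BAC nondepleted. In BAC depleted the SD of Acta2 covers the genes next in order, Cnn2 at 231 ± 58.4, Cald1 at 208 ± 93.6 and Flna at 189 ± 62.8. In BAC nondepleted it covers Cnn2 at 188 ± 6.15. The order of these genes within each BAC group is thus not resolved. In BM sorted Myl9 at 738 ± 34.4 and Actg2 at 669 ± 54.5 came next and differed from each other by little more than their SDs. Actg2 ranked 3 in both BM groups and 22 in both BAC groups, at 5.23 ± 1.86 in BAC depleted. Tagln, often used beside Acta2 as a smooth muscle marker, ranked 18 in BM sorted at 41.4 ± 3.01, a value to be read with the overlap on the opposite strand noted above. Myh11 ranked 25 in BM sorted at 10.9 ± 3.16, Myocd 29 at 1.20 ± 0.18, Kcnmb1 30 at 0.226 ± 0.134 and Pdlim3 last at 0.0431 ± 0.0491.

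The spread between libraries was wider in BAC. Over the tested members the median coefficient of variation was 12.4% in BM sorted, 17% in BM nonsorted, 45% in BAC depleted and 24.6% in BAC nondepleted. Members with a coefficient over 50% numbered 1, 5, 14 and 6. In BAC depleted the highest was Fhl1 at 145%. Within that group the members did not share one order: BAC depleted 2 was highest for 16 of the 30, among them Acta2, Tagln, Myh11 and Mylk, and BAC depleted 3 for 10, among them Actg2, Cnn1, Lmod1 and Cald1. In BM nonsorted, library 3 was lowest for 24 of 30. Its median log2 deviation from the group mean was -0.20 over the members and -0.015 over all tested genes. The coefficients were not taken over all genes. Between libraries of a group, a chi-square per degree of freedom over all but the lowest-count genes was 355 to 463 in BAC depleted. It was 121 to 250 in BAC nondepleted, 33.8 to 98.7 in BM nonsorted and 16.8 to 74.7 in BM sorted. The wider spread in BAC is therefore not particular to the members.

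The pathway around the members was described from other lists. Of 15 other actins, myosins and filament proteins, 7 were called higher in BM sorted than in BAC depleted and 2 lower, with a median log2 fold change of 0.71. Over all genes 22.9% were called higher in this comparison and 24.6% lower, and in the unpurified one 14.9% and 16.8%. Flnc (filamin C) and Tpm4 had log2 fold changes of 1.24 ± 0.23 and 1.17 ± 0.27, while Zyx (zyxin, of adhesions) was lower at -1.63 ± 0.41 and Myl12b at -1.18 ± 0.32. In the unpurified comparison the counts were 8 higher and 1 lower, with Actc1, the heart actin, at 6.63 ± 1.57 (0.523, 19.04 and 3.16 CPM in BM nonsorted) and Zyx again lower at -1.38 ± 0.40. The other partners of SRF, MRTF-A and MRTF-B, named here after their values were seen, differed by less than Myocd: Mrtfa had log2 fold changes of 0.39 ± 0.20 and -0.11 ± 0.20 and was called in neither comparison. Mrtfb had 0.18 ± 0.08 and 0.52 ± 0.08 and was called higher in the unpurified one.

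Of 9 further genes that MRTF or YAP control, 2 were called higher and 2 lower in each comparison of BM with BAC, with medians of -0.45 and 0.52. Axl and Tgfb1i1 were the 2 higher, at 1.48 ± 0.38 and 0.68 ± 0.17 after purification, and Ccn1 and Amotl2 the 2 lower, at -1.84 ± 0.45 and -1.57 ± 0.25. Genes of this list were thus called in both directions, where over all genes 47.4% were called either way after purification and 31.7% before. The 47.4% stands beside the lists that follow as well. Of 13 tested genes for other functions of smooth muscle, 2 were higher and 3 lower in the purified comparison. Cacna1c, the calcium channel that triggers contraction, was higher at 4.23 ± 0.86 (62.3 ± 6.73 against 3.31 ± 4.15 CPM). Itpr1, a channel of calcium stores, and Prkg1, the kinase of the relaxing cyclic GMP pathway, were lower, at -1.38 ± 0.24 and -1.31 ± 0.40. Kcnma1, a potassium channel gene of this list, was named after its values were seen and had group means under 5 CPM. Unlike Kcnmb1 it had a lower mean in BM sorted, at 0.235, 0.719 and 0.368 CPM against 7.28, 3.78 and 0.667 in BAC depleted, with overlap. Of 8 tested pericyte genes, 3 were higher and 1 lower: Abcc9 at 6.99 ± 0.68, Mcam at 4.73 ± 0.65 and Cspg4 at -5.03 ± 1.0, with Mcam at 64.2, 119 and 95.1 against 3.28, 6.26 and 0.875 CPM. The library sums of the 10 listed pericyte genes were 786 to 956 CPM in BM sorted, 719.8 to 878 in BM nonsorted, 514 to 1258 in BAC depleted and 272 to 441 in BAC nondepleted, with Vtn at 0 in both BM groups and Kcnj8 at 0 in both BAC groups. The myofibroblast list had 1 of 6 higher, Lrrc15 at 4.73 ± 0.64, and 2 lower, Fap at -3.56 ± 0.49 and Pdpn at -1.98 ± 0.63. Whether cells of any of these kinds were present in the preparations was not tested.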

How the data were processed

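RNA-seq libraries were made from 12 samples with a low-input kit from 50 ng of total RNA, per the labels. The authors deposited raw read counts per gene in one table for the series. Per the submitters' processing notes, STAR 2.7.9a, featureCounts of Subread 2.0.1, MultiQC 1.7 and the build GRCm39 were used; no source used here gives the annotation release or the strand setting.

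Counts were tested in edgeR 4.0.16 (R 4.3.3, limma 3.58.1): the filterByExpr low-count filter, TMM scaling, one mean per group over all 12 libraries and the robust quasi-likelihood F test. P-values were adjusted by Benjamini-Hochberg over all 15698 tested genes with 0.05 as the limit for a call. The SE is approximate, taken as log2 fold change over root F. In all, 5 contrasts were made: 2 of tissue, 2 of purification and the difference of the latter. The design has 8 residual degrees of freedom. Shares of genes called were taken over all tested genes, and plots add 0.1 CPM before the log2. Counting intervals are exact at 95%, and a count of 0 was set to a floor of 3 counts over the group.

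Alternatives were DESeq2 1.42.0 (Wald test), its size factors or upper quartile scaling in edgeR, no low-count filter, one of at least 50 counts in 3 libraries, only the groups compared, the library number as a replicate block, and each library left out in turn. The test was tried on data simulated for the purified comparison at a dispersion of 0.1, with 15374 genes. Of 96 genes changed by 1 log2 unit 9.38% were recovered, and of 100 changed by 2 log2 units 92%, with 5 false calls. The simulation gave all genes the same dispersion and changed few of them, whereas 47.4% of all genes were called in the real purified comparison. Its recovered shares are therefore not the power of the real test, where Tpm1 at 0.53 and Flna at 1.04 were called. A missing call still does not show that a change of 1 log2 unit is absent. Exon lengths and overlaps came from GENCODE M21 on GRCm38, and promoter windows from RefSeq on GRCm38.p6. Every one of the 31 genes is named. From other lists up to 2 genes called in each direction were named, those with the largest log2 fold change and at least 5 CPM in the higher group. Some results of the other lists are not reported here. The genes and lists were chosen with earlier results of these data known. Figures were drawn with Python 3.11.15, pandas 2.3.3 and matplotlib 3.10.9.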

Additional observations from a re-analysis of the deposited data

Results flagged for a closer look

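The change on sorting of marrow cells differed from that on depletion of bone-associated cells for 2 of the 30 tested genes. This was the interaction term in edgeR's quasi-likelihood model, Benjamini-Hochberg adjusted. Tissue and method of purification cannot be told apart in it. Tagln2, the widely expressed transgelin, had a difference of 1.69 ± 0.36 on the log2 scale (adjusted p = 0.0220), from a log2 change of -2.0 on depletion of BAC and -0.31 on sorting of BM. The range over the 18 alternatives with a value was 1.44 to 1.92. Its call was lost in 4 of the 12 fits that left out 1 library. Ldb3, a Z-disc protein, had a difference of -2.51 ± 0.48 (adjusted p = 0.0153), since it was higher after depletion of BAC in 3 of 3 libraries, with a range of -3.01 to -2.25. Over all genes 8.06% were called in this test, so 2 of 30 is no excess among the members.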

How the results depend on the processing

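Genes called between BM and BAC mostly kept their calls, while the unpurified comparison gained some. Against 23 in the purified and 24 in the unpurified comparison, 22 to 24 and 22 to 29 were called when 1 library was left out, and 22 to 24 and 24 to 29 under the other settings (29 with only the groups compared, where Srf was lower). Over all members called there and their alternatives, calls were kept in 432 of 436 and 452 of 456 fits. Sorting gave 0 calls in every fit with 1 library left out. Depletion depended more on the setting. Against 11 genes, 7 were called with no low-count filter, 3 with only the groups compared, 7 with the replicate block (without Fhl1, Fhl2, Actg2 and Csrp1), and 6 to 12 with 1 library left out (6 without BAC nondepleted 1 or 3), so that calls were kept in 155 of 209 fits. For the difference of effects, against 2 genes, 6 were called by DESeq2's Wald test (adding Des, Cald1, Myh11 and Fhl1) and 1 to 6 with 1 library left out, and it has no value for only the groups compared. It was 1 without BM sorted 2, BM sorted 3, BM nonsorted 2 or BAC nondepleted 1, 6 without BAC depleted 1 and 4 without BAC depleted 3. Apart from the fits with fewer libraries or genes, the cause of these changes was not tested. No called fold change changed sign.

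Whether library numbers pair the samples was not settled. Same-numbered libraries had correlations of their deviations of -0.22 to 0.21 for sorting and 0.045 to 0.23 for depletion. The correlations were 0.03 to 0.13 for the purified and -0.056 to -0.026 for the unpurified comparison. In this order 2, 4, 5 and 0 of 6 libraries correlated best with their own number. With the replicate block 24 genes were called in each comparison of BM with BAC, 2 for the difference of effects and 0 for sorting.

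Depth limits Kcnmb1, Myocd and Pdlim3 in BAC, where each had at most 8 counts in a library. With 3 libraries a group and 1 BAC depleted library apart by its Xist and Ddx3y counts, small differences within BAC were not resolved.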
